A study of Mus musculus with 10 samples.

Results

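The HGF and EGF family genes described here are 10 mouse genes of a bulk RNA sequencing comparison of hepatic stellate cells: *Hgf* and its receptor *Met*, the receptors *Egfr*, *Erbb2* and *Erbb3*, and the EGF family ligands *Hbegf*, *Areg*, *Ereg*, *Tgfa* and *Nrg1*. They were taken from the table of normalized counts by gene symbol, and all 10 of them were found among the 25233 genes with a symbol. The cells were 5 preparations of hypertrophied hepatic stellate cells (hypHSCs) and 5 of quiescent hepatic stellate cells (qHSCs), sorted from the livers of C57BL/6J mice. Mice for hypHSCs were fed the CDAHFD, which is high in fat and lacks choline and so brings on steatohepatitis with fibrosis. This lasted 13 weeks for hypHSC 1 and 2 (mice aged 19 weeks) and 12 weeks for hypHSC 3, 4 and 5 (mice aged 18 weeks). Mice for qHSCs were kept on standard diet and were aged 36 weeks (qHSC 1, 2 and 5) or 34 weeks (qHSC 3 and 4). hypHSCs were gated on green and qHSCs on blue fluorescence of their droplets, after a harsher digestion of the CDAHFD livers with antibiotics added. Diet, age, digestion, antibiotics and gate therefore differ together and cannot be told apart. The authors picked the hypHSC preparations with the highest RNA integrity and report no difference in its mean from the selected qHSC preparations. The mouse behind each hypHSC library is not given, so n counts preparations and the p-values measure the spread between preparations.

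Hepatocyte growth factor (HGF) is secreted as an inactive precursor, cut into its active form by serine proteases, and bound by the receptor tyrosine kinase MET on epithelial cells and others. In the liver, stellate cells are a classical source of HGF, and hepatocytes are its best known target. The EGF family ligands are made as membrane-bound precursors that metalloproteases release. Epiregulin, amphiregulin, TGF-α and HB-EGF bind EGFR, and neuregulin 1 binds ErbB3, which signals mainly in pairs with ErbB2, a receptor with no ligand of its own.

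The libraries held 30534719 to 43283589 reads on genes with a symbol in hypHSCs and 35640104 to 47317028 in qHSCs. Values are normalized counts, that is reads divided by the size factor of the library, and 3 reads or fewer were read as not detected, a floor equal to 2.49 to 4.54 normalized counts in hypHSCs and 2.25 to 2.72 in qHSCs. Quiescent markers of the labelled cell type were low in the libraries labelled hypHSC. All 10 quiescent stellate cell markers tested were lower in hypHSCs, with a summed level of 6853 to 19928 normalized counts against 815352 to 1478083 in qHSCs, and *Lrat*, the enzyme that stores retinol as ester, had 476 to 2312 against 74761 to 136938. Of 10 activated stellate cell markers, 3 were higher and 2 lower, with a summed level of 190212 to 351932 against 33613 to 63684. Most of the hypHSC sum was *Spp1* (160907 to 335921), which is 1 of the 3 and is also in the cholangiocyte list. All 10 macrophage markers were higher, with a summed level of 1030622 to 1440137 in hypHSCs against 5930 to 103174 in qHSCs, and *Lyz2*, lysozyme, alone had 740305 to 940344 in hypHSCs. Of the qHSC libraries, qHSC 4 had the highest macrophage sum at 103174 and qHSC 1 the next at 46228, and the other 3 had 5930 to 10068. All 4 tested neutrophil markers were higher too (1861 to 8040 summed, against 5.25 to 389), as were all 5 tested cholangiocyte markers (161508 to 336712 against 50.5 to 388, mostly *Spp1*, which macrophages also express). *Krt19*, a keratin of bile duct cells, had 33.3 to 710 against 0 to 8.15, and was at 0 in qHSC 3, 4 and 5. Of 10 hepatocyte markers none was higher and 1 lower (68737 to 103356 against 56306 to 117379). Of 9 tested endothelial markers, 2 were higher and 4 lower (2952 to 6221 against 1771 to 3584). The single T and NK cell marker tested was not called, 2 of 4 tested mesothelial and portal fibroblast markers were higher, and of 14 immediate early genes 1 was higher and 2 lower. The part of these differences in the results on the growth factor genes was not tested, and in bulk samples fewer cells of a type and less RNA per cell cannot be told apart.

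Testing was limited to the 14630 genes that reached 10 normalized counts in 5 or more of the 10 libraries. Such a gene was called if its log2 fold change (hypHSC over qHSC) was at least 1 in size with an adjusted p of at most 0.05 in limma on log2(normalized count + 1), Benjamini-Hochberg adjusted over these 14630 genes. By this rule 39.5% of the genes tested were called, 17.8% as higher in hypHSCs (2602 genes) and 21.7% as lower (3177). Scaled to the same total per library, 2022 were higher and 4225 lower, and scaled on the reference genes *Hprt*, *Pgk1* and *Actb* 1472 and 6990, the median log2 fold change of all genes tested moving from -0.20 to -0.54 and -1.12. Of the 10 HGF and EGF family genes, 7 were tested: *Met* and *Hbegf* were higher in hypHSCs, and *Hgf*, *Egfr*, *Erbb2*, *Ereg* and *Tgfa* were lower. *Erbb3*, *Areg* and *Nrg1* were under the filter. *Met* reached 10 normalized counts in the 5 hypHSC libraries and in qHSC 4 alone, so it passed through the group in which it is high. *Hbegf* reached 10 in only 3 qHSC libraries, *Egfr* and *Erbb2* in only 3 hypHSC libraries and *Tgfa* in 4. These too passed only with the libraries of the group in which they are high. The count of calls among the 7 is therefore a description only. The 5 hypHSC and 5 qHSC values did not overlap for *Hgf*, *Met*, *Egfr*, *Erbb2*, *Hbegf* and *Ereg*, whereas those of *Tgfa*, *Erbb3*, *Areg* and *Nrg1* did. Among all genes tested the groups did not overlap in 39.5%, with hypHSCs above in 17.6% and below in 22.0%.

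**Figure D1:**
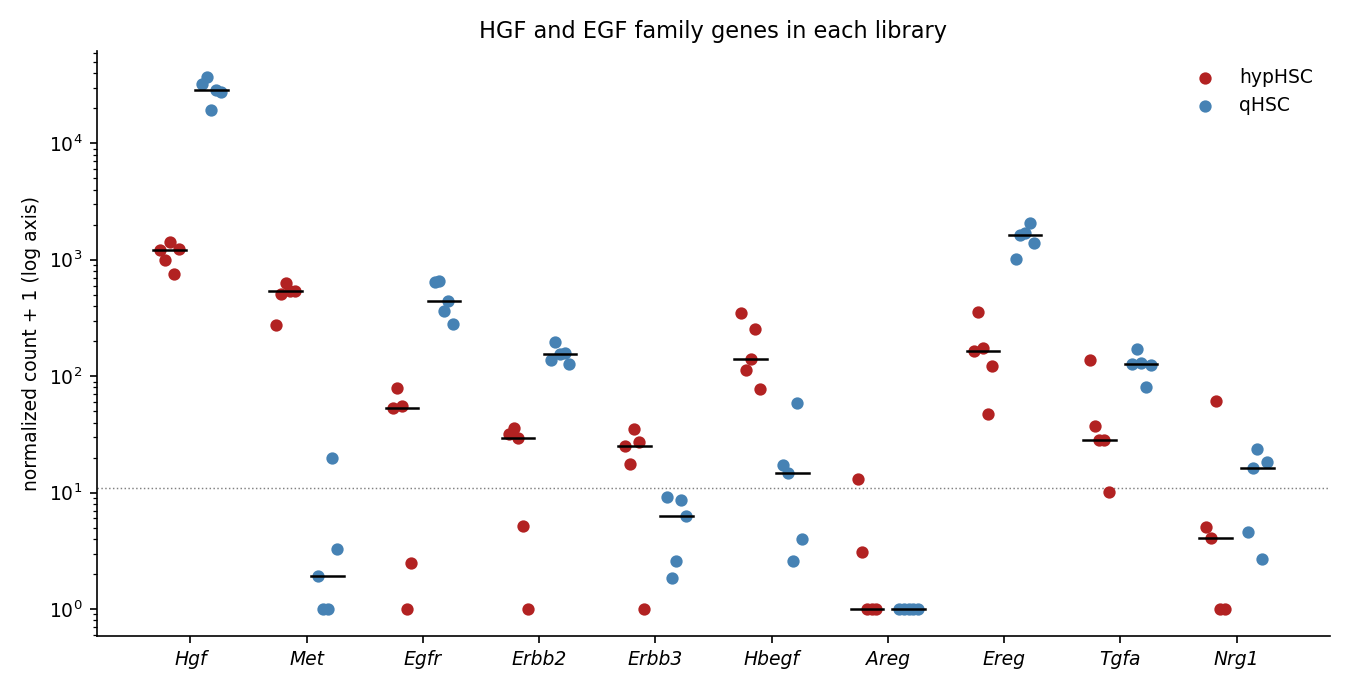
Normalized count plus 1 (log axis) of the 10 genes in each of the 5 hypHSC (red) and 5 qHSC (blue) libraries, with a black bar at the median of each group and a dotted line at the filter of 10 normalized counts. *Hgf* stood at 751 to 1411 in hypHSCs and 19283 to 36851 in qHSCs, *Met* at 276 to 625 and 0 to 18.8.

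*Hgf*, the ligand of MET, was the most abundant gene of the family in both groups and was lower in hypHSCs. Its gene (chr5:16758492-16824437, GRCm39, plus strand) had 1218.15, 997.98, 1411.20, 751.16 and 1240.24 normalized counts in hypHSC 1 to 5. In qHSC 1 to 5 it had 32005.61, 36850.78, 19283.33, 28671.51 and 27412.62. The lowest qHSC library thus lay far above the highest hypHSC library, and neither group held a library that stood apart. The means were 1124 ± 255 and 28845 ± 6473 (SD, n = 5), which is 25.7-fold lower in hypHSCs, with a log2 fold change of -4.68 (SE 0.22, adjusted p = 8.80e-08, limma). The exact two-sided permutation test gave p = 0.00794, the smallest value that 5 against 5 allows. By mean count *Hgf* ranked 129 among all genes with a symbol in qHSCs, and it ranked 455 by the size of its fall among the genes tested. Of the 10 quiescent stellate markers, which also fell, the log2 fold changes ranged from -8.39 for *Colec10* to -3.47 for *Hand2*, and that of *Hgf* lay between them. The log2 fold change was -4.82 to -4.54 when any 1 library was left out, and -4.69 with the hypHSCs at 12 weeks only. Of the summed exon length of *Hgf*, 6.52% is shared with other annotated genes, a lncRNA on the other strand and a transcript of uncertain status. The libraries keep no strand, so reads in these stretches cannot be told apart.

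*Met*, the HGF receptor, went the other way. The gene (chr6:17463956-17573979, plus strand) had 276.24, 507.27, 625.35, 539.24 and 539.96 normalized counts in hypHSC 1 to 5 and 0.91, 0.00, 0.00, 18.83 and 2.25 in qHSC 1 to 5. These are 205 to 752 reads in every hypHSC library, whereas 4 of the 5 qHSC libraries were at or under the floor of 3 reads and qHSC 4 held 22 of the 26 reads of its group. The means were 498 ± 131 and 4.40 ± 8.12 (SD, n = 5), a ratio of 113. The log2 fold change was 7.52 (SE 0.78, adjusted p = 1.77e-05, limma; exact permutation p = 0.00794), which ranked 72 by rise among the genes tested. Since the qHSC values are near 0, its size depended on the pseudocount and on qHSC 4: it was 8.06 with a pseudocount of 0.5, 5.99 with 5, and 8.25 without qHSC 4. qHSC 4 was also the qHSC library with the highest macrophage sum, and in hypHSCs the macrophage markers rose by 1.73 (*Mertk*) to 7.21 (*Lyz2*) on the log2 scale. qHSC 1, with the next highest sum (46228), held 1 *Met* read. Among hypHSCs *Met* was lowest in hypHSC 1 (276, macrophage sum 1327603), whereas hypHSC 5, with the lowest sum (1030622), had 540. How *Met* relates to the macrophage markers was not tested. No other annotated gene covers exon bases of *Met*.

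The promoters of these genes are given because *Hgf* and *Met*, a ligand and its receptor, differed between the groups in opposite directions and with groups that do not overlap. The sequences are from RefSeq (GRCm38.p6, an earlier build than that of the counts) and run from 250 bases before to 50 after an annotated start. For *Hgf* the table holds 2 starts, and the downstream of them is shown (chr5:16553651-16553950, plus strand, GC content 51.3%), with that of *Met* (chr6:17463707-17464006, plus strand, GC content 75.7%). Capitals mark matches, on either strand, to an AP-1 site (TGANTCA) and to a GC box (GGGCGG).
Hgf promoter: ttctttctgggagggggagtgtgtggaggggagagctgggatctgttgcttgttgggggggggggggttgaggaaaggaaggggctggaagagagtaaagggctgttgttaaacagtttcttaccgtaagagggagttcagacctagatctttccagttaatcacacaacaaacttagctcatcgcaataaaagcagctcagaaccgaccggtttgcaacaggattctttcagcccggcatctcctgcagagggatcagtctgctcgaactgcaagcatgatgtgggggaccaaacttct
Met promoter: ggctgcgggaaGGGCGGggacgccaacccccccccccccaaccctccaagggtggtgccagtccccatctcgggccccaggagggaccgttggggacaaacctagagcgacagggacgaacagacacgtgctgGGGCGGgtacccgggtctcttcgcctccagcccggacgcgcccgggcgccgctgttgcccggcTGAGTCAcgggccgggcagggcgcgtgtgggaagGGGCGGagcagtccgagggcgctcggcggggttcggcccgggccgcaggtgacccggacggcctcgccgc
The *Met* promoter holds 1 AP-1 match, beginning at position -54 from the start, and 3 GC boxes, the farthest at -239, none of which overlap each other. The *Hgf* promoters hold none of these, nor a cAMP response element (TGACGTCA) or TATA box (TATAAA). Of the 32851 mouse promoters of the same length in the table, 7.81% hold the AP-1 letters, 35.7% a GC box, 1.79% a cAMP response element and 13.6% a TATA box. The median GC content of all of them was 52.7%. The motifs were chosen after the sequences had been seen, and a match is a description of the letters only.

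Because both genes were counted in the same libraries, their ratio needs no scaling between libraries. The annotated *Hgf* ends beyond the interval counted and *Met* does not, so the size of the ratio per kilobase is uncertain. Per kilobase of exon, *Hgf* exceeded *Met* 3.20-, 1.43-, 1.64-, 1.01- and 1.66-fold in hypHSC 1 to 5. In the 3 qHSC libraries with any *Met* read, *Hgf* exceeded *Met* 25625-fold (qHSC 1), 1104-fold (qHSC 4) and 8837-fold (qHSC 5). Ligand and receptor transcripts were thus within a few fold of each other in every hypHSC library, and in no qHSC library. *Met* made up 23.8% to 49.8% of the summed *Hgf* and *Met* level per kilobase in hypHSCs and at most 0.0905% in qHSCs. On the FPKM scale *Hgf* had 2.55 ± 0.767 in hypHSCs and 82.3 ± 17.7 in qHSCs, and *Met* 1.55 ± 0.491 and 0.0174 ± 0.0324 (SD, n = 5).

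**Figure D2:**
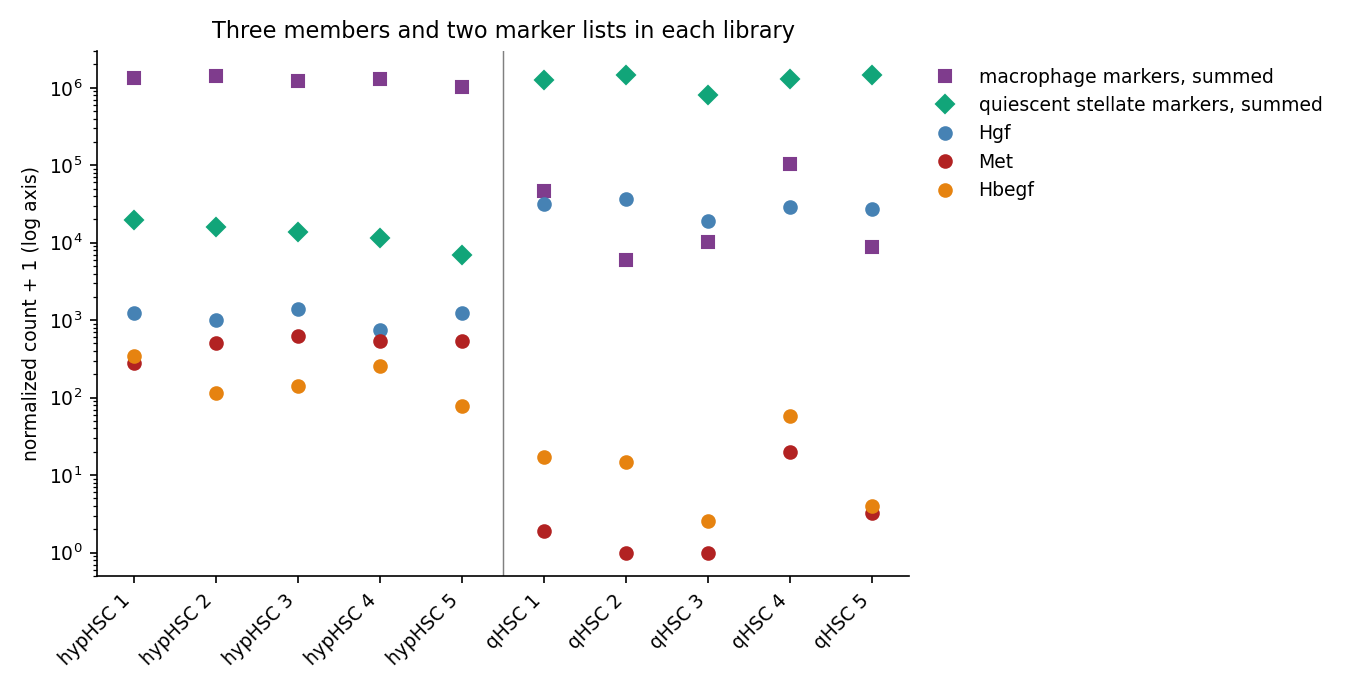
Normalized count plus 1 (log axis) of *Hgf*, *Met* and *Hbegf* and the summed normalized counts of 10 macrophage and 10 quiescent stellate markers in each library, with hypHSCs left and qHSCs right of the line. Among qHSCs, *Met* (18.8), *Hbegf* (57.3) and the macrophage sum (103174) were each highest in qHSC 4, whereas *Hgf* was highest in qHSC 2. qHSC 1, with the next highest macrophage sum (46228), had 0.91 for *Met* and 16.3 for *Hbegf*.

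Of the EGF family receptors, *Egfr* and *Erbb2* were lower in hypHSCs. *Egfr* (chr11:16702201-16863907, plus strand), the receptor of EGF, TGF-α, amphiregulin, epiregulin and HB-EGF, had 52.55, 77.64, 54.88, 0.00 and 1.51 normalized counts in hypHSC 1 to 5. It had 638.08, 660.33, 359.80, 440.68 and 279.48 in qHSC 1 to 5. All qHSC libraries lay above all hypHSC libraries, and the hypHSC values fell into 3 libraries with 39 to 75 reads and 2, hypHSC 4 and 5, with 0 and 1 read. The means were 37.3 ± 34.8 and 476 ± 169 (SD, n = 5), 12.7-fold lower in hypHSCs, and the log2 fold change was -4.99 (SE 1.16, adjusted p = 0.00443, limma; exact permutation p = 0.00794). Its size rested on hypHSC 4 and 5. It was -4.03 without hypHSC 4, -4.36 without hypHSC 5 and -2.87 without both (adjusted p = 6.57e-05, limma), whereas it was -5.60 without hypHSC 2. With edgeR on whole reads it was -3.63.

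*Erbb2* (chr11:98303310-98328542, plus strand), the partner receptor without a ligand, divided the libraries in a like way. It had 30.99, 35.20, 28.27, 4.20 and 0.00 normalized counts in hypHSC 1 to 5 and 137.57, 194.27, 155.10, 156.59 and 125.88 in qHSC 1 to 5. No hypHSC library reached the lowest qHSC library, and hypHSC 4 and 5 were again the lowest. The means were 19.7 ± 16.4 and 154 ± 25.9 (SD, n = 5), 7.80-fold lower in hypHSCs, with a log2 fold change of -3.77 (SE 0.92, adjusted p = 0.00577, limma; exact permutation p = 0.00794). Without hypHSC 5 it was -2.90 and without hypHSC 4 and 5 together -2.24 (adjusted p = 0.000154, limma). hypHSC 4 and 5 also had the fewest genes with a read, 14949 and 14028 against 15821 to 16634 in hypHSC 1 to 3, and the lowest quiescent stellate sums, 11598 and 6853 against 13686 to 19928. The part of these measures in the low *Egfr* and *Erbb2* values was not tested. *Mien1*, which overlaps the end of *Erbb2* on the other strand by 0.166% of its exon bases, had 5786 to 15535 in hypHSCs and 2105 to 3092 in qHSCs.

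*Erbb3* (chr10:128403392-128425521, minus strand), a neuregulin receptor, was too low to be tested. It had 24.26, 16.56, 34.10, 26.23 and 0.00 normalized counts in hypHSC 1 to 5 and 8.15, 0.85, 1.57, 7.70 and 5.25 in qHSC 1 to 5. The 4 highest values were all from hypHSCs, and the lowest, at 0, was hypHSC 5, so the groups overlap. The difference in log2(normalized count + 1) was 1.5, with an exact permutation p of 0.175. Summed over *Egfr*, *Erbb2* and *Erbb3*, the receptor FPKM was 0.00274 to 0.427 in hypHSCs and 1.36 to 2.82 in qHSCs. *Egfr* held 50.1% to 67.4% of that sum in qHSCs, and *Erbb3* at most 1.79%. In hypHSC 1 to 3, *Egfr* held 30.9% to 42.4% and *Erbb3* 16.6% to 35.2%. The shares of hypHSC 4 and 5 rest on too few reads (29 and 1 over the 3 genes) to be read.

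Among the ligands of EGFR, *Ereg* and *Tgfa* were lower in hypHSCs, *Hbegf* was higher, and *Areg* had few or no reads in any library. *Ereg* (chr5:91222476-91241508, plus strand) encodes epiregulin and had 163.05, 354.06, 173.80, 46.16 and 122.51 normalized counts in hypHSC 1 to 5. In qHSC 1 to 5 it had 1006.45, 1643.59, 1698.99, 2061.35 and 1398.92. The groups did not overlap, and the lowest qHSC library held more than every hypHSC library. The means were 172 ± 113 and 1562 ± 391 (SD, n = 5), 9.09-fold lower in hypHSCs, with a log2 fold change of -3.41 (SE 0.45, adjusted p = 0.000105, limma; exact permutation p = 0.00794). It was -3.74 to -3.01 when any 1 library was left out.

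*Tgfa* (chr6:86172204-86252726, plus strand), encoding TGF-α, had 136.10, 36.23, 27.44, 27.28 and 9.07 normalized counts in hypHSC 1 to 5. It had 125.81, 171.26, 128.33, 80.43 and 123.63 in qHSC 1 to 5. hypHSC 1 lay within the qHSC range and the other 4 hypHSC libraries lay below it. The means were 47.2 ± 50.7 and 126 ± 32.2 (SD, n = 5), with a log2 fold change of -1.89 (SE 0.61, adjusted p = 0.0237, limma; exact permutation p = 0.0397). This was the least stable call of the 7: it was lost with edgeR (-1.39, adjusted p = 0.0799) and without qHSC 2 (-1.77, adjusted p = 0.0577, limma), and it was -2.40 without hypHSC 1. hypHSC 1 also had the highest *Krt19* (710, against 33.3 to 202 in the other hypHSCs) and *Sox9* (1244, against 146 to 505), both genes of bile duct cells. The cholangiocyte sum, however, was highest in hypHSC 5 (336712). Of the hypHSCs, hypHSC 1 further had the highest quiescent stellate (19928), mesothelial and portal fibroblast (1552) and T and NK cell (689) sums. It also had the most reads without a symbol (29.1%). The part of these measures in its *Tgfa* level was not tested.

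*Hbegf* (chr18:36637980-36648859, minus strand), encoding heparin-binding EGF-like growth factor, had 347.66, 112.84, 140.54, 254.93 and 77.14 normalized counts in hypHSC 1 to 5. In qHSC 1 to 5 it had 16.29, 13.63, 1.57, 57.33 and 3.0. The highest qHSC library, qHSC 4, came close to the lowest hypHSC library, hypHSC 5, without reaching it. The means were 187 ± 112 and 18.4 ± 22.7 (SD, n = 5), a ratio of 10.2, with a log2 fold change of 3.90 (SE 0.82, adjusted p = 0.00244, limma; exact permutation p = 0.00794). Without qHSC 4, which had the highest macrophage sum of the qHSCs, it was 4.51. The relation of *Hbegf* to the macrophage markers was not tested. A lncRNA on the other strand covers 16.3% of the exon bases of *Hbegf*, and its reads cannot be told apart from those of *Hbegf*.

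*Areg* (chr5:91287458-91296291, plus strand), encoding amphiregulin, is the neighbour of *Ereg* but did not share its level. It had 12.13 normalized counts in hypHSC 1 and 2.07 in hypHSC 2, and was at 0 in hypHSC 3 to 5 and in all 5 qHSC libraries. These are 11 reads in all, so no fold is given. *Nrg1* (chr8:32304499-32499532, minus strand), encoding neuregulin 1, had 4.04, 3.11, 59.87, 0.00 and 0.00 in hypHSC 1 to 5 and 3.62, 15.34, 22.83, 1.71 and 17.23 in qHSC 1 to 5. Most of its hypHSC reads were from hypHSC 3, which held 72 of 78. The log2 difference was -1.23, with an exact permutation p of 0.373, and it was -1.31 with the hypHSCs at 12 weeks only and 0.15 without hypHSC 4 and 5 together.

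Ligand levels were compared per length as FPKM. Over *Ereg*, *Hbegf*, *Tgfa* and *Areg* the summed FPKM was 3.27, 2.66, 1.96, 1.43 and 0.919 in hypHSC 1 to 5 and 7.68, 12.0, 13.0, 15.0 and 9.39 in qHSC 1 to 5. In qHSCs *Ereg* made up 91.3% to 95.3% of this sum and *Hbegf* at most 2.31%, so the transcripts in this sum were nearly all epiregulin. In hypHSCs the make-up varied by library: *Ereg* led in hypHSC 2, 3 and 5 (73.2%, 55.3% and 62.6%) and *Hbegf* in hypHSC 1 and 4 (50.6% and 77.6%). *Tgfa* held 3.02% to 14.8% in hypHSCs and 2.42% to 7.43% in qHSCs, ranges that overlap. The sum and shares leave out the other EGF family ligands. Of these, *Btc* averaged 73.2 normalized counts in hypHSCs and 51.4 in qHSCs, *Egf* 21.2 and 71.1, and *Epgn* had 93.8 in hypHSC 5.

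**Figure D3:**
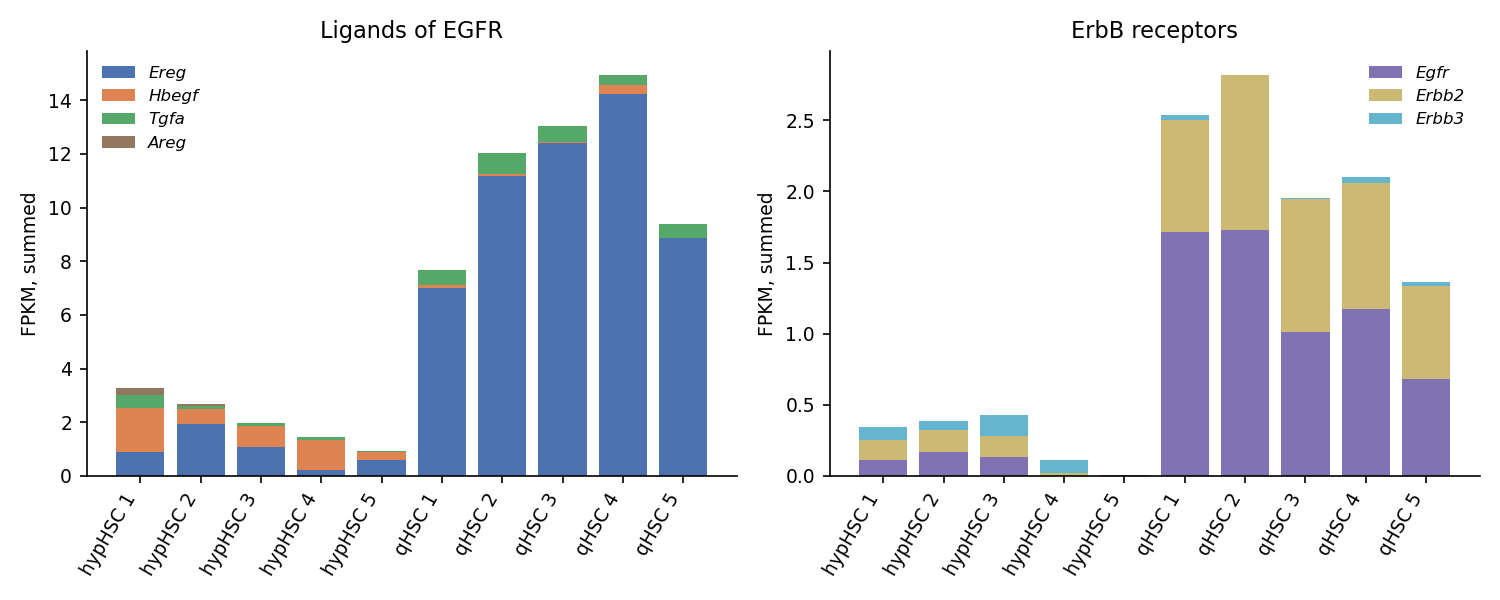
FPKM of 4 ligands of EGFR (left) and of 3 ErbB receptors (right), stacked by gene, in each of the 10 libraries, on separate linear axes. The ligand sum was 0.919 to 3.27 in hypHSCs and 7.68 to 15.0 in qHSCs, and the receptor sum 0.00274 to 0.427 and 1.36 to 2.82.

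In order of FPKM, qHSCs had *Hgf* (82.3 ± 17.7), *Ereg* (10.7 ± 2.86), *Egfr* (1.26 ± 0.455), *Erbb2* (0.869 ± 0.161), *Tgfa* (0.563 ± 0.145) and *Hbegf* (0.110 ± 0.137), and then *Erbb3*, *Nrg1*, *Met* and *Areg*, each at 0.0227 or less in the mean (SD, n = 5). The lowest *Hgf* library (58.8) stood above the highest *Ereg* library (14.2), and the lowest *Ereg* library (7.01) above the highest *Egfr* library (1.73). The ranges of *Egfr* (0.682 to 1.73) and *Erbb2* (0.655 to 1.08) overlapped, as did those of *Erbb2* and *Tgfa* (0.362 to 0.759). Within each qHSC library, however, *Egfr* stood above *Erbb2* and *Erbb2* above *Tgfa*. In hypHSCs the order was *Hgf* (2.55 ± 0.767), *Met* (1.55 ± 0.491), *Ereg* (0.946 ± 0.648) and *Hbegf* (0.878 ± 0.524), followed by *Tgfa* (0.168 ± 0.181), *Erbb2* (0.0920 ± 0.0767), *Egfr* (0.0820 ± 0.0761), *Erbb3* (0.0802 ± 0.0546), *Areg* and *Nrg1*. Each neighbour in that order overlapped the next in range. By these means *Met* stood next after *Hgf* in hypHSCs and last but for *Areg* in qHSCs. The order did not hold in every library. *Ereg* stood above *Met* in hypHSC 1 (0.890 against 0.869) and hypHSC 2 (1.95 against 1.61), as did *Hbegf* in hypHSC 1 (1.65). In qHSC 4 *Met* (0.0749) stood above *Erbb3* (0.0376) and *Nrg1* (0.00315). The annotated *Nrg1* extends beyond the interval counted, which leaves its level per length uncertain. The annotated *Hgf* and *Egfr* also end beyond their intervals, at 16828178 against 16824437 and at 16868158 against 16863907. Their levels, ratios and shares per length are uncertain too.

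**Figure D4:**
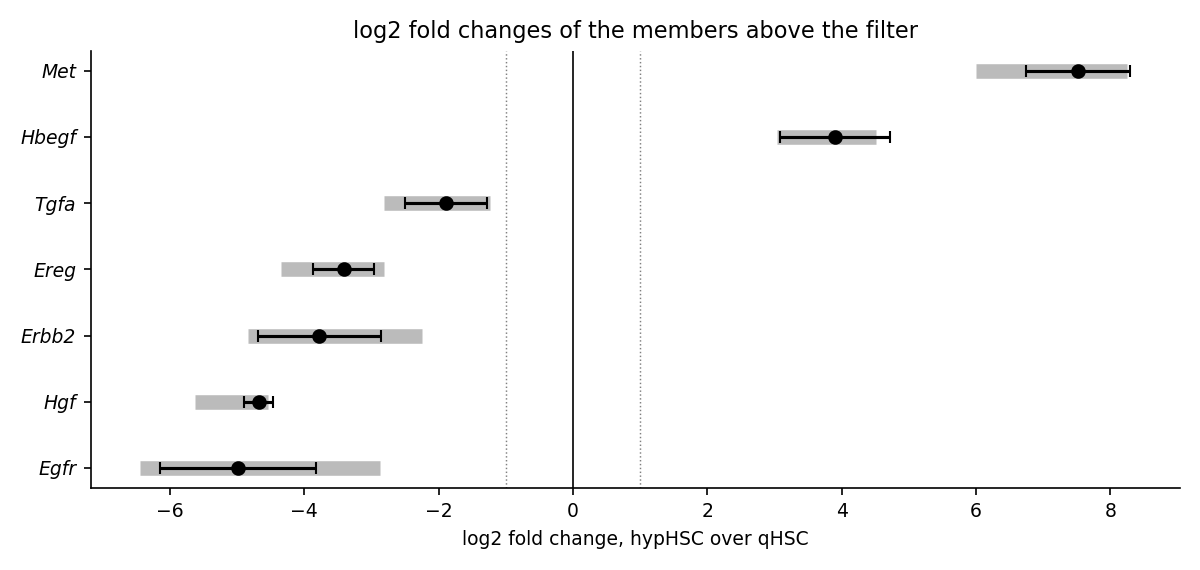
log2 fold change (hypHSC over qHSC) of the 7 genes above the filter. Points with bars are the limma estimate ± SE, grey bands the lowest to the highest value over the alternative settings, and dotted lines a log2 fold change of 1 in either direction. The bands of *Egfr* (-6.44 to -2.87) and *Erbb2* (-4.84 to -2.24) were wide and that of *Hgf* (-5.62 to -4.54) narrow, and none crossed 0.

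Within the CDAHFD group, *Met* averaged 392 normalized counts at 13 weeks (hypHSC 1 and 2) and 568 at 12 weeks (hypHSC 3 to 5), and *Hgf* 1108 and 1134. *Egfr* averaged 65.1 and 18.8, *Ereg* 259 and 114, *Hbegf* 230.2 and 158, and *Tgfa* 86.2 and 21.3. Single libraries weighed on these means. *Egfr* had 54.9 in hypHSC 3 (12 weeks), near the 52.6 of hypHSC 1 (13 weeks), and 0 and 1.51 in hypHSC 4 and 5. *Tgfa* at 13 weeks had 136.1 in hypHSC 1 and 36.2 in hypHSC 2. No test was made, since the 10 arrangements of 2 against 3 libraries allow no exact one-sided p below 0.1. In qHSCs, *Hgf* averaged 32090 at 36 weeks of age and 23977 at 34 weeks, and *Ereg* 1350 and 1880.

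The table also counts entries without a gene symbol that lie within or overlap these genes. The stretch within *Hgf* moved as the gene did, with 0 to 63.0 normalized counts in hypHSCs and 225 to 516 in qHSCs. That within *Met* had 6.74 to 115 in hypHSCs and was at 0 in all qHSC libraries. An entry that overlaps the start of *Ereg* had 9.44 to 62.1 in hypHSCs and 263 to 442 in qHSCs. An entry that overlaps the end of *Erbb2* had 1449 to 3787 in hypHSCs and 560 to 828 in qHSCs, opposite in direction to *Erbb2*. Within *Egfr* a stretch near the start of the gene had 11.5 to 172 and 84.4 to 185, ranges that overlap although those of *Egfr* do not.

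The other genes of both pathways were described by lists of 97 genes, of which 85 were tested. Of these, 19 were higher in hypHSCs (22.4%, against 17.8% of all genes tested) and 24 lower (28.2%, against 21.7%), and 42 were not called. Their median log2 fold change was -0.40, and that of all genes tested -0.20. Scaled to the same total per library, 14 were higher and 31 lower, and scaled on the reference genes 9 and 49.

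Of the other 7 EGF family genes, 2 were tested and none called. *Egf*, the founding ligand, had 0 to 51.6 normalized counts in hypHSCs and 0 to 114 in qHSCs (log2 fold change -2.47, adjusted p = 0.225, limma). When any 1 library was left out it was -3.76 to -1.79, and *Egf* was called only without qHSC 4 (-3.76, adjusted p = 0.0373, limma). *Btc*, betacellulin, had 0 to 195 and 0.86 to 97.6 (-0.13, adjusted p = 0.951, limma), and its sign turned with the library left out (-1.13 without qHSC 4 to 1.07 without hypHSC 5). *Nrg4*, an ErbB4 ligand, had 13.0 ± 12.8 and 1.02 ± 1.59 (SD, n = 5) and was under the filter. *Erbb4*, its receptor, had 9.07 ± 14.7 in hypHSCs and was at 0 in all qHSC libraries. *Epgn*, epigen, was seen in hypHSC 5 alone (93.8), *Nrg2* had at most 9.32 in any library, and *Nrg3* was at 0 in all 10.

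Of 12 tested genes for HGF activation and MET co-receptors, 3 were higher (25%, against 17.8% of all genes tested). Another 5 were lower (41.7%, against 21.7%), and the median was -0.23. The rises were *Plau*, urokinase (log2 fold change 6.56), *Cd44*, a MET co-receptor (3.01), and *Plat*, tissue plasminogen activator (1.92). The largest falls were *Plxnb1*, a semaphorin receptor that pairs with MET (-5.37), *Hgfac*, the HGF activator protease (-4.0), and *Mst1*, the HGF-like ligand of another receptor (-3.21). *Plau* had 138 to 560.1 normalized counts in hypHSCs and 0 to 18.8 in qHSCs, and *Plxnb1* 0 to 160.4 and 406 to 576. Without 1 library, *Plau* was at 7.16 (without qHSC 4), *Plxnb1* at -6.33 and -4.49 (without hypHSC 1 and 5), *Hgfac* at -4.80 (without hypHSC 1), *Mst1* at -2.45 and -4.01 (without hypHSC 1, where it was not called, and hypHSC 4) and *Plat* at 2.52 (without qHSC 3). The calls of *Plat* and *Mst1* held in 2 and 5 of the 10 fits that left out a library, and *Plat* was not called under the reference gene scaling (0.98). The rises of *Plau* and *Cd44* stood beside those of the 10 macrophage markers, and that relation was not tested.

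Of 12 tested genes for the shedding of EGF ligands, 5 were higher (41.7%, against 17.8% of all genes tested). Another 5 were lower (41.7%, against 21.7%), and the median was -0.52. *Adam8* (8.34) and *Adam10* (1.60), membrane metalloproteases, and *Cd9* (5.23), a tetraspanin that associates with the HB-EGF precursor, had the largest rises. *Adam12* (-3.63) and *Adam19* (-2.61), also metalloproteases, and *Rhbdf1* (-3.45), a partner of ADAM17, had the largest falls. *Adam8* had 3544 to 21876 normalized counts in hypHSCs and 1.70 to 60.7 in qHSCs. Without qHSC 2 *Adam8* was at 7.46, without hypHSC 2 *Adam12* at -4.40, and without hypHSC 5 *Rhbdf1* at -2.43. *Adam10* was not called under the reference gene scaling (0.66).

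Of 28 tested receptor adaptors and signalling genes, 5 were higher (17.9%, against 17.8% of all genes tested). Another 6 were lower (21.4%, against 21.7%), so the shares were near those of all genes. The median was -0.35. *Pik3cb*, a catalytic subunit of PI3-kinase (4.18), *Grb2*, the adaptor that links receptors to RAS (2.78), and *Nras* (1.78) had the largest rises. *Pik3cb* was low, with 29.1 to 65.2 normalized counts in hypHSCs and 0 to 8.56 (at most 10 reads) in qHSCs. It thus passed the filter only through the group in which it is high. *Eps8*, an EGFR substrate (-3.26), *Gab1*, the docking protein of MET (-3.11), and *Plcg1*, phospholipase C-γ1 (-3.07), had the largest falls. *Grb2* had 5236 to 7689 normalized counts in hypHSCs and 847 to 1187 in qHSCs, and *Gab1* 75.5 to 244 and 1083 to 1726. *Nras* was not called under the reference gene scaling (0.84), and the call of *Plcg1* held in 6 of the 10 fits that left out a library, with -3.67 without hypHSC 1 and -2.42 without hypHSC 2.

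Of 24 tested feedback inhibitors of the receptors and of ERK, 5 were higher (20.8%, against 17.8% of all genes tested). Another 7 were lower (29.2%, against 21.7%), and the median was -0.45. *Spry1* (-5.26) and *Spry4* (-3.97), Sprouty inhibitors of receptor signalling, and *Ptprk*, a receptor phosphatase (-4.53), had the largest falls. *Spry1* had 132 to 980 normalized counts in hypHSCs and 9269 to 14103 in qHSCs. *Sh3kbp1*, an adaptor of receptor endocytosis (5.91), and the phosphatases *Ptpn1* (2.50) and *Ptprj* (2.12) had the largest rises. Of 7 tested genes that ERK induces, *Fosl1* was higher (2.32) and *Phlda1* lower (-2.70), and 5 were not called (median -0.92). That is 14.3% in each direction, under the 17.8% and 21.7% of all genes tested. *Fosl1* was not called under the reference gene scaling (1.41).

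**Figure D5:**
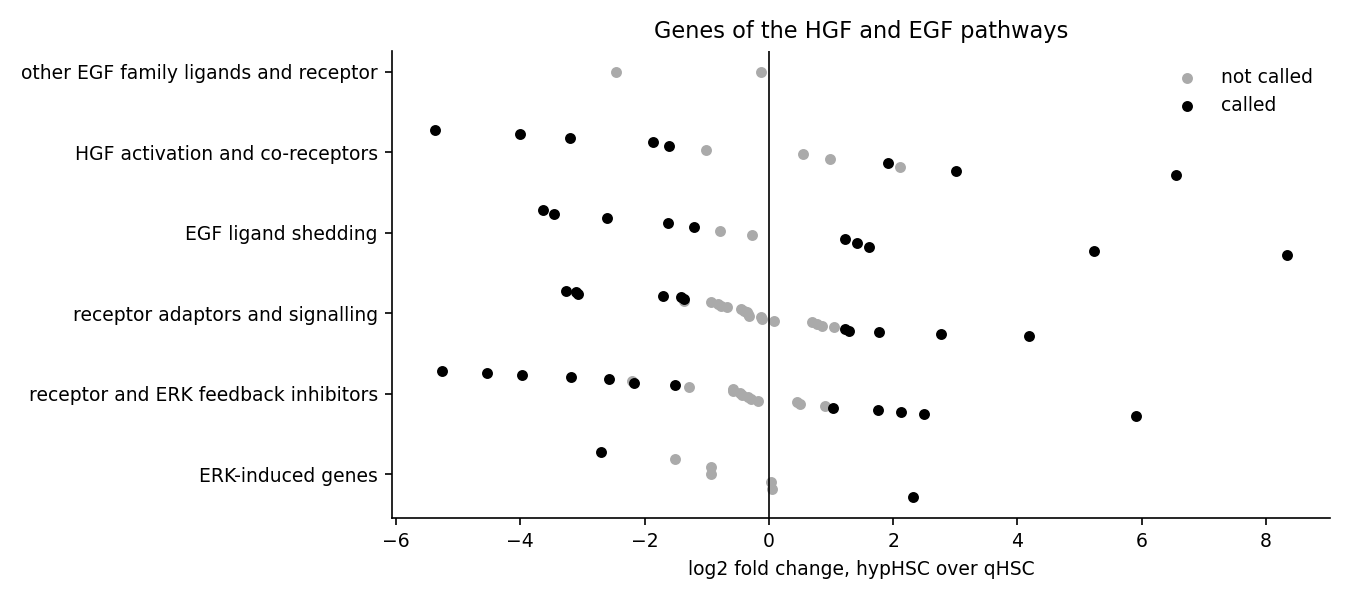
log2 fold change (hypHSC over qHSC) of the 85 tested genes of 6 pathway lists, spread vertically within a list in order of value. Black points were called and grey points were not. Each list other than that of the other EGF family genes held calls on both sides of 0.

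Among the genes whose log2 values were most like those of *Hgf* over the 10 libraries, of 10791 tested genes averaging 100 normalized counts or more, were *Ifih1* (Pearson r 0.996) and *Mtus1* (0.995). *Ifih1* had 1016 to 1328 normalized counts in hypHSCs and 7563 to 9432 in qHSCs. For *Met* the 3 most alike were *Frrs1* (0.993), the shared entry of *Evi2a* and *Evi2b* (0.992) and *Tnfrsf22* (0.992). *Frrs1* had 3169 to 8102 normalized counts in hypHSCs and 31.5 to 298 in qHSCs. All points share the division into 2 groups, and 20 genes for *Hgf* and 6 for *Met* had an r above 0.99.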

How the data were processed

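RNA sequencing gave 10 libraries, 5 per group. The authors reverse-transcribed polyadenylated RNA, sequenced both ends without keeping the strand, mapped reads to mm39 (GRCm39) with STAR, counted them per gene of the FAST DB annotation with featureCounts (Subread 1.5.0) and divided counts by DESeq2 size factors. These deposited values, a signal in normalized counts, were used for limma.

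Reads were recovered by multiplying each deposited column by a factor. At least 99.998% of the values became whole reads within 0.0051 normalized counts. Size factors were 0.661 to 1.20 in hypHSCs and 1.10 to 1.33 in qHSCs. These reads gave depth, FPKM (per summed exon length in GENCODE vM39, found for 91.9% of genes with a symbol) and DESeq2 (1.42.0) and edgeR (4.0.16, quasi-likelihood) as alternatives. Of all reads, 8.98% to 29.1% lay on entries without a symbol, which were left out.

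The test was limma 3.58.1 in R 4.3.3 (log2(normalized count + 1), intensity trend, Benjamini-Hochberg). The added 1 shrinks differences between low counts. Even so, the limma log2 fold change of each tested member was larger in size than that of DESeq2. It was -4.99 against -3.65 for *Egfr*, -3.77 against -2.93 for *Erbb2* and 7.52 against 6.88 for *Met*. Exact two-sided permutation tests covered the 252 arrangements of 5 against 5. Floors cover counting error only. Steps were tested on simulated data.

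The members, gene lists and tests were chosen with earlier results of these data known. Named pathway genes are all other EGF family genes and, per list, the called genes with the 3 largest rises and falls. Genes of like pattern are the 3 with the highest Pearson r, of which 1 is not reported here. *Mien1* and the marker genes were named beside results they touch. Alternatives changed the pseudocount, filter, scaling, test, replicate block, samples or entries used. Leaving out hypHSC 4 and 5 together was added after the values had been seen.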

Additional observations from a re-analysis of the deposited data

Results flagged for a closer look

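A library was set apart where its gap to the nearest of the other 4 libraries of its group, divided by the range of the group, exceeded 0.71 (Dixon's test at 5 libraries). This was asked of the 10 genes and the 7 other EGF family genes, in the 29 groups with more than 3 reads in some library. For normally distributed values chance alone sets apart about 1 in 20 groups. Many values here lay near 0, so that rate need not hold. For *Epgn* and *Nrg2*, with 4 libraries at 0, the ratio was 1 whatever the remaining value. In all, 7 libraries were set apart. In qHSC 4, *Met* had 18.83 normalized counts (22 reads) against 0 to 2.25 in the other qHSCs. *Hbegf* had 57.33 in the same library against 1.57 to 16.3, and the macrophage marker sum of qHSC 4 was the highest of the qHSCs (103174). The relation of these values was not tested. In hypHSC 1, *Tgfa* had 136.1 against 9.07 to 36.2 in the other hypHSCs, and *Areg* had 12.13 (9 reads) against 0 to 2.07. *Nrg1* had 59.87 in hypHSC 3 (72 reads) against 0 to 4.04. *Epgn* had 93.77 in hypHSC 5 (62 reads) and was at 0 in the other 4 hypHSCs. *Nrg2* had 7.67 in qHSC 2 (9 reads) and was at 0 in the other 4 qHSCs.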

How the results depend on the processing

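*Hgf*, *Met*, *Egfr*, *Erbb2*, *Hbegf* and *Ereg* kept their direction and their call in every alternative in which they were tested (24 each, 23 for *Erbb2*), and *Tgfa* kept its direction in 23 and its call in 20. The call of *Tgfa* was lost with edgeR (-1.39), without qHSC 2, and without hypHSC 4 and 5 together (-1.23, adjusted p = 0.0651, limma), and over the fits that left out a library its log2 fold change was -2.40 to -1.46. Where genes with a mean under 100 normalized counts were left out, *Erbb2* and *Tgfa* were not tested, so that 3 of the family were lower in place of 5. The scaling on reference genes gave 9 higher and 49 lower pathway genes in place of 19 and 24, and 1472 and 6990 of all genes in place of 2602 and 3177. With entries without a symbol kept, 9291 of 24320 entries were called, 3911 higher and 5380 lower, in place of 5779 of 14630. On whole reads DESeq2 called 3014 genes higher and 2847 lower and edgeR 2786 and 2550. The replicate numbers did not pair the libraries: deviations of same-numbered libraries correlated at 0.00815 to 0.129, and only number 5 correlated best with its own. With the replicate number as a block, 2557 genes were higher and 3229 lower, and the log2 fold change of *Tgfa* kept its call (adjusted p = 0.0310, limma). Where hypHSC or qHSC values rest on a few reads (*Met* in qHSCs, *Egfr* and *Erbb2* in hypHSC 4 and 5, *Areg*, *Nrg1* and *Erbb3*), depth limits the size of a fold change, and the cause of the changed calls was not tested.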
